A study of Mus musculus with 5 samples.

Results

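RNA polymerase II occupancy in lung was set against that in spleen, region by region. The members are the 2 libraries of these tissues, of 5 in the series, chosen by their tissue label alone. The series maps polymerase by chromatin immunoprecipitation and sequencing (ChIP-seq) in adult FVB mice, in lung, spleen, brain, kidney and liver, with 1 library per tissue. All 5 libraries share the strain and an antibody against RNA polymerase II (Abcam ab5408). The labels name no treatment and give neither exact age, sex nor number of animals, and no input library was used here. With 1 library per tissue there are no replicates, so no p-value is given. The intervals below are 95% exact binomial intervals. Those of folds and of read ratios cover counting error only. They take each read as its own molecule, which reads without molecular identifiers need not be. Those of shares of regions take each region as independent, which neighbouring regions need not be. Each tissue was used whole, so fewer cells of a type and less polymerase per cell cannot be told apart.

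RNA polymerase II transcribes all messenger RNA genes. On active genes it is known to gather in a narrow band near the transcription start, where it can pause, and to spread thinly along the gene body while it elongates. Genes transcribed very actively can show dense polymerase over their whole length. Lung is built of airway and alveolar epithelium, a very dense capillary endothelium and supporting mesenchyme, and it holds blood and resident immune cells. Spleen is made mostly of blood cells: B and T lymphocytes in the white pulp, and macrophages and red cells, with their precursors in the mouse, in the red pulp. Signal that lung shares with spleen but not with other organs is therefore where blood cells are looked for, and lung signal that spleen lacks is where structural cells are looked for. No annotation of the build of these coordinates was used here, so regions are given by deposited position, without genes, and the defining genes of each tissue and cell type were not checked.

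The lung library held 10846976 aligned reads and the spleen library 13283124. The authors' peak lists held 72971 positions for lung and 31594 for spleen. Windows reaching 250 bp either way from these positions were merged where they overlapped, which gave 85744 regions. Reads were counted at their 5′ end. Spleen counts were multiplied by 1.545, the median of lung over spleen reads at the 7003 regions with at least 20 reads in both, to bring them to the scale of lung. By total reads this factor would be 0.817, a shift of 0.92 on the log2 scale. Away from the regions, lung had 1.65 reads and spleen 2.34 reads per 500 bp, so after scaling the background itself was lower in lung, by -1.13 on the log2 scale. Weak regions therefore lean toward spleen. Of the 85744 regions, 172 were pile-ups, lying within 100 kb of the first read of a chromosome or holding at least 20 times the background density over 10 kb in every library. They are kept in the results below except where they are said to be left out.

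Lung shared about 1 in 5 of its polymerase regions with spleen, and the strongest regions were nearly all shared. A peak of both tissues lay in 15019 regions, while 54953 regions had a lung peak only and 15772 a spleen peak only. These 15019 regions are 21.5% of the lung regions (21.2% to 21.8%) and 48.8% of the spleen regions (48.2% to 49.3%). The share went with read number. Of lung regions with 10 to 19 lung reads, 10.8% had a spleen peak, against 45.8% of those with 20 to 49 reads, 85.2% of those with 50 to 99 and 91.3% (89.3% to 93.1%) of the 911 with 100 or more. Of spleen regions with 10 to 19 spleen reads, 35.6% had a lung peak, and of the 211 with 100 or more reads 99.1% (96.6% to 99.9%) did. The 172 pile-ups are kept among all regions here, some with very high counts, and the shares were not taken without them. How strong a peak had to be to enter the lists is not known here, and a region without a peak can hold reads: regions with a lung peak only had a median of 12 reads in lung and 5 in spleen, and regions with a spleen peak only had a median of 4 reads in lung and 12 in spleen. Over all regions with a lung peak only, lung reads were 8.65 times and spleen reads 2.37 times the background of their library. Over those with a spleen peak only, lung reads were 3.06 times and spleen reads 5.60 times background.

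**Figure D1:**
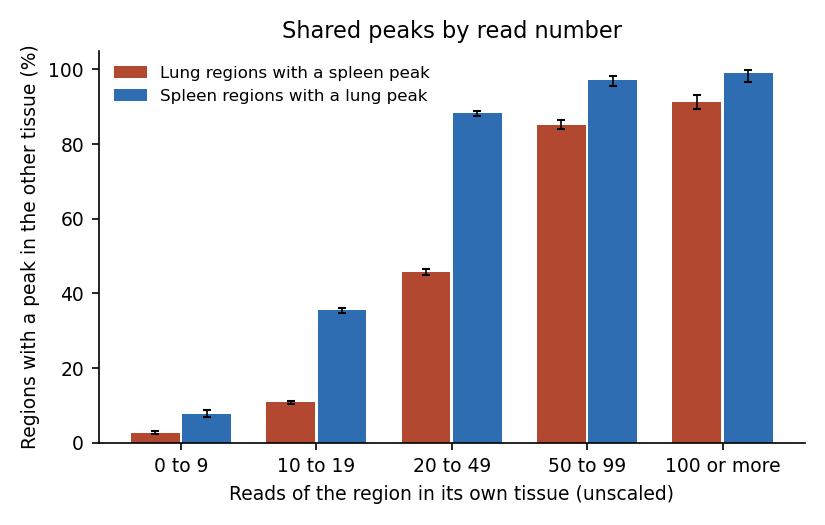
Share of regions with a peak in the other tissue (y axis, percent) by unscaled reads of the region in its own tissue (x axis), for lung regions (left bars) and spleen regions (right bars). Error bars are 95% exact binomial intervals, and pile-ups are kept. The share is 2.73% and 7.80% below 10 reads and 91.3% and 99.1% at 100 or more.

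Where both tissues had a peak, most regions differed by less than 2-fold after scaling. The median log2 ratio of lung over spleen at the 15019 regions was -0.17, with quartiles at -0.70 and 0.37, and the median absolute log2 ratio was 0.54. Of the 7003 regions with at least 20 reads in both libraries, 5974 differed by less than 2-fold, which is 85.3%. By total reads 3737 did, or 53.4%. The 5974 are called balanced regions. The scaling was taken from the same 7003 regions, so the centre of this distribution near 0 is set by the method and its width is the measurement.

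The strongest balanced regions held at least 145 reads in both tissues. The one with the highest lower count, at chr7:20281861-20282381, held 410 reads in lung and 386 in spleen. After scaling lung stood at 0.687 times spleen (0.597 to 0.792). This region was also strong in brain (259 reads), kidney (318) and liver (708). At chr5:143668036-143668581 there were 477 reads in lung and 188 in spleen, a scaled ratio of 1.64 (1.38 to 1.95). The region at chr15:79913511-79914146 was the most even of the 10 strongest, with 244 reads in lung and 163 in spleen, a ratio of 0.969 (0.791 to 1.19), and it also held 235 reads in brain, 164 in kidney and 243 in liver. All 10 of these regions held at least 50 reads in each of the 5 libraries, so at these 10 the 3 other organs had signal as well. Its level differed: at chr17:35399781-35400316 the scaled reads were 237 in lung and 292 in spleen, against 71.7 in brain, 78.0 in kidney and 272 in liver. Over all balanced regions this was not counted.

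Lung stood at least 4-fold above spleen at 2277 regions, and spleen at least 4-fold above lung at 860. A call needed 20 reads in the higher library, and counts under 3 were set to 3. The lung calls are 11.8% of the 19256 regions that had the reads to be called, and the spleen calls 9.55% of 9002. The median fold was 5.08 among lung-higher regions and 6.49 among spleen-higher regions. At 8-fold, 248 regions were higher in lung and 322 in spleen. The floor caps these folds unequally: 20 lung reads can reach at most 4.31-fold and 20 spleen reads 10.3-fold, and 640 lung calls and 114 spleen calls had under 3 reads in the lower library. Counting error leaves many calls near the threshold: the lower bound of the fold exceeded 2 at 1178 of the lung-higher and 757 of the spleen-higher regions, and it exceeded 4 at 175 and 181. Another 1437 regions were 3 to 4-fold higher in lung and 441 in spleen. Pile-ups made up 0 of the lung-higher regions and 39 of the spleen-higher ones, which leaves 821 spleen-higher regions without them.

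The split between the directions depends on the scaling. Lung-higher regions were 72.6% of all calls, 94.9% when scaled by total reads and 83.5% after background was subtracted. Lung calls were outnumbered when 10 reads were enough for a call, at 2494 lung-higher and 8493 spleen-higher regions, and with windows of 500 bp, at 1263 lung-higher and 3060 spleen-higher regions. All 2277 lung calls and 347 of the spleen calls were also made by total reads. With background subtracted, 1924 of the lung calls and 536 of the spleen calls were made again.

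**Figure D2:**
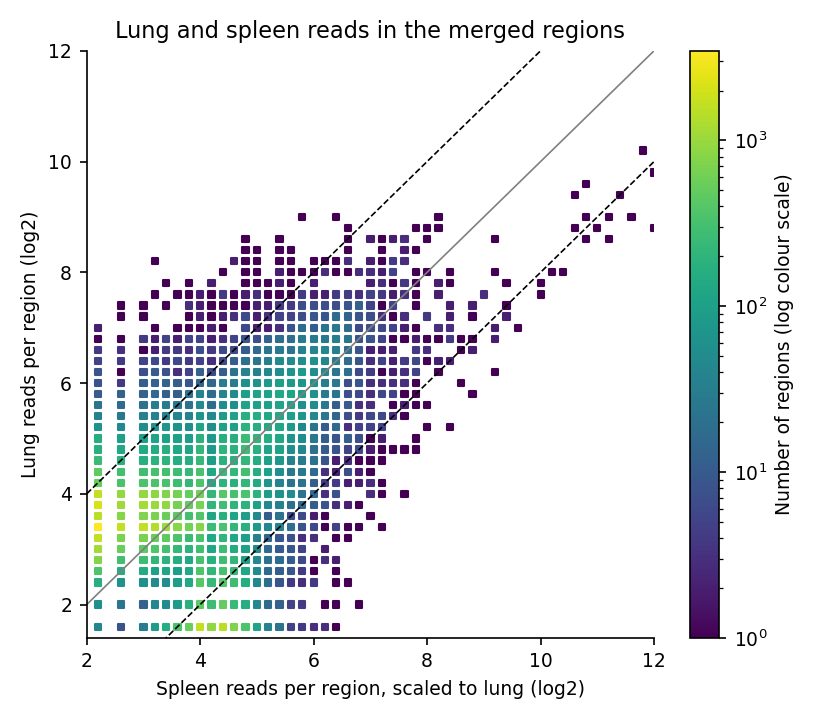
Lung reads (y axis, log2) against scaled spleen reads (x axis, log2) of the 85744 regions, counted on a grid, with counts under 3 set to 3 and colour for the number of regions on a log scale. The solid line marks equal reads and the dashed lines 4-fold; 2277 regions lie on or above the upper line and 860 on or below the lower with the 20 reads a call needs, and a few pile-ups lie outside the axes.

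Folds were ranked with counts under 3 set to 3. The regions with the largest lung-over-spleen folds were strong in lung and close to background in spleen. The top one, at chr19:5840196-5840696, held 296 reads in lung and 6 in spleen, a fold of 31.9 (14.5 to 87.7). It was not particular to lung, since kidney held 141 reads there and liver 407, with 47 in brain. Next to it in rank was chr15:101106231-101106731, with 126 reads in lung and 1 in spleen, a ratio of 81.5 without the floor (interval 14.4 to 3245) and 27.2 with it. There brain held 17 reads, kidney 3 and liver 3.

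Of these 10 regions, 3 lay close together on chromosome 15, between 101100581 and 101106731. At chr15:101100581-101101081 lung had 158 reads and spleen 4, and at chr15:101103231-101103731 lung had 173 and spleen 5. All 3 were low outside lung, with 9 to 17 reads in brain, 3 to 13 in kidney and 3 to 5 in liver. The region at chr5:53463136-53463636 was likewise low elsewhere: it held 110 reads in lung, 3 in spleen, 12 in brain, 4 in kidney and 6 in liver, and its ratio of lung over spleen was 23.7 (7.91 to 117).

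The other members of the top 10 had signal in further organs. On chromosome 3, the region at chr3:145309186-145309686 held 125 reads in lung and 2 in spleen, a ratio of 40.4 (11.0 to 338) without the floor and 27.0 with it, and its neighbour at chr3:145312436-145312936 held 225 in lung and 7 in spleen, 20.8-fold (9.93 to 52.3). Kidney had 21 and 59 reads there and liver 11 and 87. On chromosome 2, chr2:26450831-26451331 held 138 reads in lung and 4 in spleen, beside 79 in kidney and 69 in liver. Its neighbour at chr2:26440831-26441331 held 97 in lung and 3 in spleen. At chr9:102619961-102620461 lung had 200 reads and spleen 6, a fold of 21.6 (9.74 to 59.5), and brain, kidney and liver had 41, 51 and 67. In all 10 regions the authors listed a lung peak and no spleen peak.

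The 10 regions with the largest spleen-over-lung folds were mostly near background in every other organ. They held 51 to 118 spleen reads, or 78.8 to 182 after scaling, beside 97 to 296 lung reads at the 10 lung regions above. With the floor and the scaling, a spleen region needs fewer unscaled reads than a lung region to reach the same fold. The ranking therefore sets this difference in part. At chr1:53848156-53848656 there were 4 reads in lung and 76 in spleen, and spleen was 29.4-fold higher (11.0 to 111). Brain held 2 reads there, kidney 4 and liver 3. At chr10:59682641-59683141 lung had 5 reads and spleen 66, with 0 in brain, 8 in kidney and 6 in liver. At chr10:42621186-42621686 lung had 4 and spleen 52, with 4 in brain, 1 in kidney and 0 in liver. The exception among the 10 was chr13:21813746-21814246, with 3 reads in lung and 52 in spleen but 64 in brain, 19 in kidney and 30 in liver. Lung was there the lowest of the 5 tissues.

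Some of the spleen-higher regions kept more signal in lung than in the 3 other organs. At chr9:105973951-105974451 lung held 10 reads and spleen 93, a spleen fold of 14.4 (7.48 to 31.0), while brain held 0, kidney 3 and liver 6. At chr16:19066501-19067386 lung held 16 and spleen 118, a spleen fold of 11.4 (6.73 to 20.6), while brain held 4, kidney 6 and liver 6. This was the only one of the 10 with a peak in both lists. The remaining 4 regions, on chromosomes 13, 17, 1 and 11, held 5 to 7 reads in lung and 51 to 55 in spleen.

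**Figure D3:**
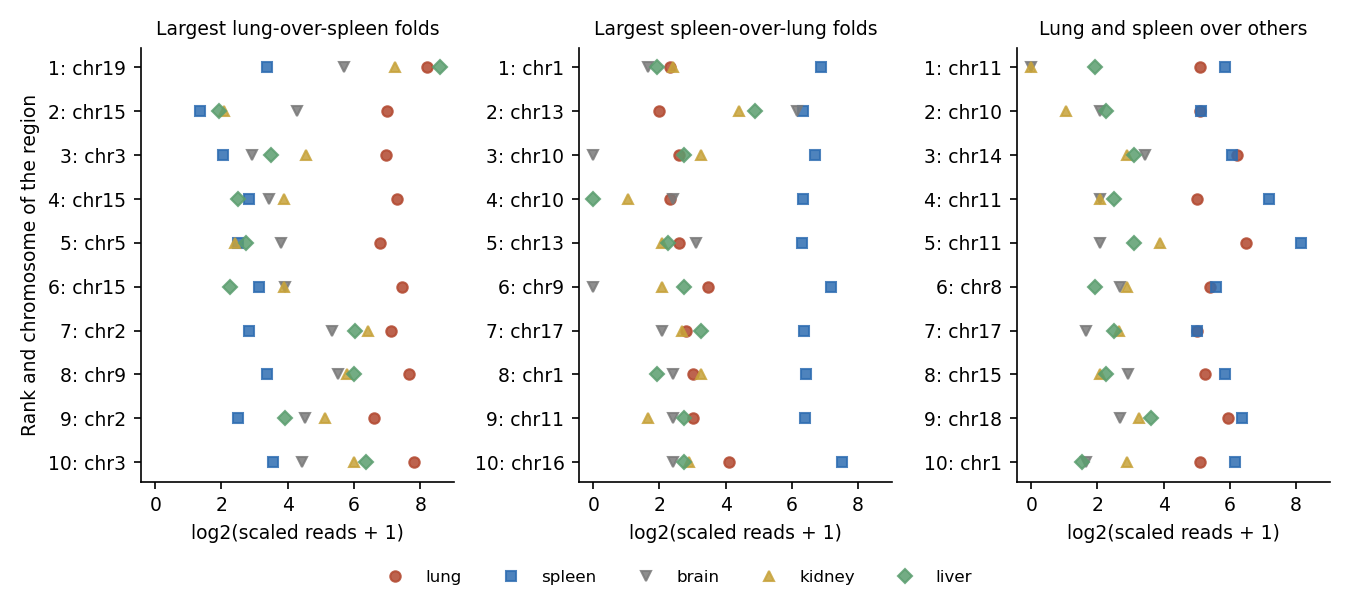
Scaled reads of the 5 tissues, as log2 of reads plus 1 (x axis), at the 10 regions with the largest lung-over-spleen fold (left), the 10 with the largest spleen-over-lung fold (middle) and the 10 with lung and spleen highest over brain, kidney and liver (right), in order of rank (y axis). In the left panel kidney and liver stand near lung in several regions, with 151 and 383 scaled reads at the first, whereas in the middle panel spleen mostly stands alone.

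Other organs came near the higher tissue more often at lung-higher than at spleen-higher regions, and at both less often than at regions at large. The classes were chosen from lung and spleen alone, without the reads of brain, kidney and liver. Pile-ups, though, were marked in part by density in all 5 libraries, and leaving them out dropped 39 spleen-higher and 0 lung-higher regions. Each share below is taken against the tissue whose high count made the call, so the choice itself lowers it in part. Spleen counts are raised by the scaling, so at the read minimum an organ needed more scaled reads to come near spleen than lung. These shares were not taken with total reads as the scale. At the 2277 lung-higher regions, kidney was within 2-fold of lung or above it in 1133 (49.8%), brain in 584 (25.6%) and liver in 575 (25.3%). At least 1 of the 3 was so in 1402 (61.6%). Over all 19146 regions with at least 20 lung reads outside pile-ups, these shares were 76.5% for kidney, 63.2% for brain, 57.9% for liver and 86.8% for at least 1. The median scaled reads were 31 in lung, 4.64 in spleen, 10.9 in brain, 17.1 in kidney and 9.41 in liver. Lung was at least 4-fold over all 3 other organs, as well as over spleen, in 263 regions (11.6%), beside 2.40% of the 19146. At the 821 spleen-higher regions outside pile-ups, brain was within 2-fold of spleen or above it in 32 (3.90%), kidney in 35 (4.26%) and liver in 40 (4.87%), and at least 1 of them in 81 (9.87%). Over all 8868 regions with at least 20 spleen reads outside pile-ups the shares were 64.3% for brain, 70.5% for kidney, 61.8% for liver and 78.0% for at least 1. At the spleen-higher regions the median scaled reads were 6 in lung, 38.6 in spleen, 4.35 in brain, 6.41 in kidney and 5.65 in liver, and spleen was at least 4-fold over all 3 in 531 regions (64.7%), beside 9.80% of the 8868. Among regions with at least 50 reads in the higher tissue, at least 1 of the 3 organs came this close to lung in 46.1% of 488 lung-higher regions, and to spleen in 8.99% of 89 spleen-higher regions. Pile-ups were left out here as well.

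To set the signal that lung and spleen share beside that of other pairs, regions were chosen that were high in 1 tissue over 3 others, at least 4-fold and with at least 20 reads, and the reads of the fifth tissue, which the choice left out, were measured. Pile-ups were left out. Regions high in lung over brain, kidney and liver numbered 460, and there spleen held 30.2% of the scaled lung reads (29.3% to 31.2%), with a median over regions of 22.1%. Kidney, left out in the same way, held 38.0% of the lung reads (37.2% to 38.9%; 575 regions), brain 18.9% (18.2% to 19.6%; 364 regions) and liver 16.1% (15.5% to 16.7%; 330 regions). Spleen was within 2-fold of lung or above it in 68 of its 460 regions (14.8%), kidney in 23.7%, brain in 6.59% and liver in 4.85%. The spleen reads were 3.90 times spleen background, and those of kidney 7.63 times, brain 5.28 times and liver 3.77 times their own. With total reads as the scale the spleen share was 17.9%, below that of brain at 24.4%, so the order of spleen and brain turns with the scaling.

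At regions high in spleen, lung held more than the 3 other organs. Regions high in spleen over brain, kidney and liver numbered 869, and lung held 24.9% of the scaled spleen reads there (24.4% to 25.5%), with a median of 20.3%. Left out in turn, brain held 8.89% (8.51% to 9.28%; 564 regions), kidney 13.1% (12.6% to 13.5%; 604 regions) and liver 11.5% (11.1% to 11.9%; 581 regions). The lung reads were 6.56 times lung background, against 2.20 times in brain, 2.47 times in kidney and 2.17 times in liver. Lung was within 2-fold of spleen or above it in 64 regions (7.36%), while kidney was in 4 of its 604 regions (0.662%), brain in 6 and liver in 6. With total reads as the scale the lung share was 39.3%, and those of brain, kidney and liver were 12.4%, 14.6% and 13.5%. Under both scalings lung thus held more of the signal at spleen regions than any of the other 3 organs did. The 4 sets overlap in part and share the spleen library, and differences between animals were not measured.

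**Figure D4:**
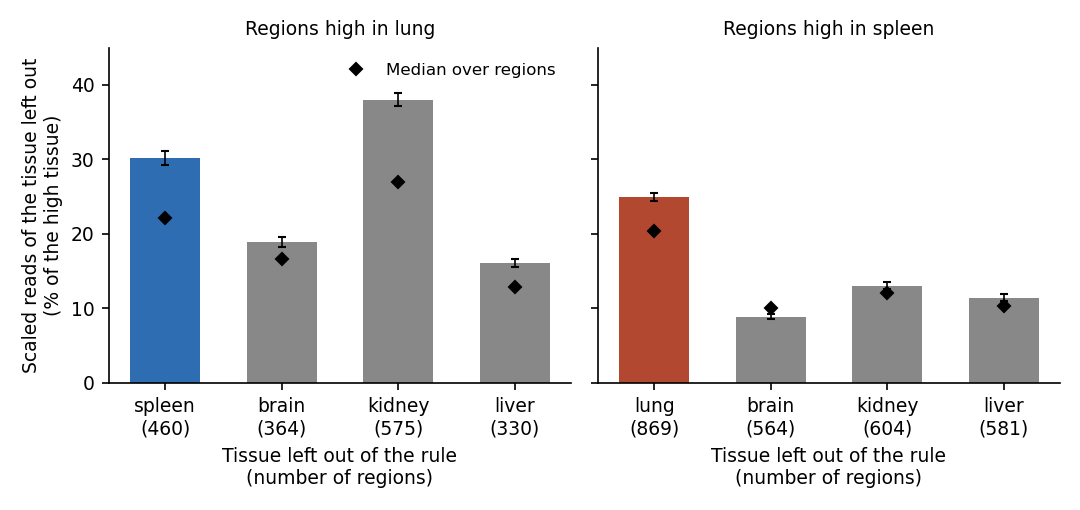
Scaled reads of the tissue left out of the choice, as a percentage of the high tissue (y axis), at regions at least 4-fold higher in lung (left panel) or spleen (right panel) than in the 3 tissues other than the one shown (x axis, with the number of regions). Pile-ups are left out. Bars are ratios of summed reads with 95% exact binomial intervals and diamonds are medians over regions; in the right panel lung stands at 24.9% and brain, kidney and liver at 8.89% to 13.1%.

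A small set of regions was high in both lung and spleen and low in the 3 other organs. With at least 20 reads in lung and in spleen and both at least 4-fold over each of brain, kidney and liver, it held 30 regions, 0.428% of the 7003 with the reads to be called. Of these, 20 were balanced, 0 were lung-higher and 1 was spleen-higher. Lung was below spleen after scaling in 24 of the 30 (80.0%; 61.4% to 92.3%). By total reads this was so in 10 of the 30, so the direction turns with the scaling. The interval takes the 30 regions as independent, though several lie close together on chromosomes 11, 17 and 18.

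The leading region of this set, at chr11:87569666-87570166, held 33 reads in lung and 37 in spleen, with 0 in brain, 0 in kidney and 3 in liver. Close by, at chr11:87571766-87572311, lung held 89 reads and spleen 181, with 3 in brain, 13 in kidney and 8 in liver, and spleen was 3.14-fold higher (2.43 to 4.10). At chr14:70575341-70576071 lung had 74 reads and spleen 43, a ratio of 1.11 (0.755 to 1.66), against 9 in brain, 6 in kidney and 8 in liver. The one spleen-higher member, chr11:106175496-106176076, held 31 reads in lung and 93 in spleen, a spleen fold of 4.64 (3.06 to 7.21), and 3 to 5 reads in the other organs.

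Further members were close to even between the 2 tissues. At chr10:116712956-116713531 there were 33 reads in lung and 22 in spleen, with 3 in brain, 1 in kidney and 4 in liver. At chr8:26212956-26213676 there were 41 in lung and 30 in spleen, with 3 to 6 elsewhere. At chr17:34422821-34423346 there were 31 in lung and 20 in spleen, with 2 to 5 elsewhere. This last region lay shortly before a run of spleen-higher regions on the same chromosome, described next.

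Lung-higher regions came in more runs than spleen-higher regions, of about the same median span, 6.80 kb in lung and 6.85 kb in spleen. Called regions of 1 direction with gaps of up to 5 kb were joined, and runs have at least 3. Lung had 135 runs with 774 of its 2277 called regions, and spleen 25 runs with 124 of its 860. Without pile-ups, spleen had 20. Lung had more calls to join.

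The lung run with the most regions spanned 58.5 kb on chromosome 17, from 87175951 to 87234451, with 39 called regions. Over its whole length lung held 3712 reads and spleen 497, a fold of 4.83 (4.40 to 5.32), and brain, kidney and liver held 774, 1383 and 1297. On chromosome 1 a run of 34 regions, from 73955221 to 74010671, held 3933 reads in lung and 558 in spleen, a fold of 4.56 (4.17 to 4.99). Kidney exceeded lung there, with 6438 reads. A run of 23 regions followed it, from 74015921 to 74070221, with 2292 reads in lung, 496 in spleen and 4959 in kidney. Of the 5 lung runs that joined most regions, the steepest lay on chromosome 19, from 5822246 to 5844746. It held 6478 reads in lung and 447 in spleen, 9.38-fold (8.52 to 10.3), beside 4138 in kidney and 7183 in liver. On chromosome 10 a run of 18 regions from 85763321 to 85794171 held 2087 reads in lung and 251 in spleen, 5.38-fold (4.72 to 6.16), and 3784 in kidney. Kidney or liver thus exceeded lung in unscaled reads in 4 of these 5 runs, of which those on chromosome 1 adjoin. The run with the next most regions, 16, lay on chromosome 8 from 123588446 to 123616246. It held 1426 reads in lung, 212 in kidney and 224 in liver. In the further lung runs counted, with 10 to 14 regions, lung also held more reads than kidney or liver.

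The spleen run with the most regions spanned 24.0 kb on chromosome 12, from 114643246 to 114667206, with 23 called regions. Lung held 459 reads over it and spleen 2164, a spleen fold of 7.29 (6.59 to 8.08), while brain held 131, kidney 156 and liver 244. A run of 6 regions on chromosome 17, from 34428496 to 34442096, held 134 reads in lung and 404 in spleen, a spleen fold of 4.66 (3.82 to 5.71), and 82 to 111 in the other organs. A run of 5 on chromosome 2, from 172851031 to 172861231, held 131 reads in lung and 341 in spleen, a spleen fold of 4.02 (3.28 to 4.96). A pair of spleen runs with 16 and 7 regions, at the start of chromosome 9, were pile-ups, with 5613 and 1536 reads in lung and 17537 and 5913 in spleen.

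The shape of the signal differed between the classes. Central read density, within 250 bp of the midpoint, was divided by the density in the flanks from 1 to 5 kb out. A read was added to each count, and the median over regions was taken outside pile-ups. At balanced regions this was 8.50 in lung and 5.44 in spleen. At lung-higher regions it was 2.69 in lung (interval of the median 2.60 to 2.78) and 1.01 in spleen. At spleen-higher regions it was 1.72 in lung and 4.73 in spleen (4.52 to 5.08). The median of lung reads in the flanks was 183 at lung-higher regions and 74 at balanced regions. The median of spleen reads in the flanks was 86 at spleen-higher regions, against 72 at balanced regions. In lung the quartiles at spleen-higher regions were 1.05 and 2.85. The classes were chosen on central reads, so a high centre in the higher tissue and a low one in the lower tissue are set by the choice. Flanks are set by it in part, since called regions that lie close together can fall in one another's flanks. Runs held 774 lung-higher and 124 spleen-higher regions, the latter with pile-ups included. Called regions close together outside runs were not counted.

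**Figure D5:**
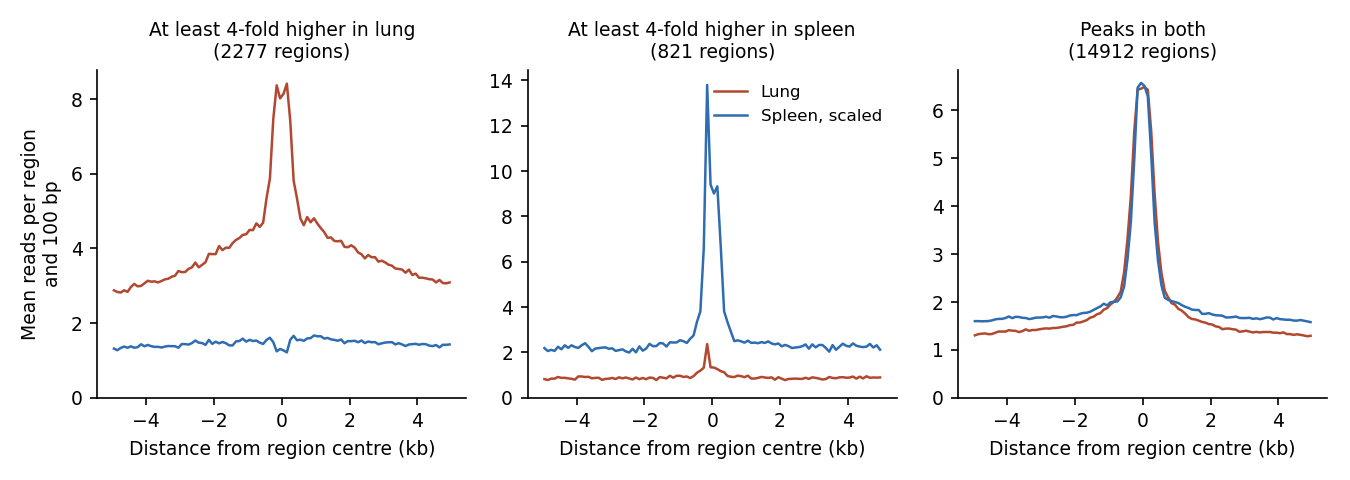
Mean reads per region and 100 bp (y axis) by distance from the region centre (x axis, kb) in lung and in spleen scaled to lung, for regions at least 4-fold higher in lung, at least 4-fold higher in spleen, and with peaks in both tissues, without pile-ups. The y axes differ between panels. The lung curve falls slowly away from the 2277 lung-higher centres and spleen dips at them, while lung shows a low, narrow rise at the 821 spleen-higher centres. There the bin at -150 bp stands above its neighbours in both tissues, at 2.37 in lung and 13.8 in spleen. A mean can be raised by few regions, and whether it was so here was not tested.

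Distances from called to balanced regions were set beside those of all regions with at least 20 reads that were not balanced. These leave out pile-ups and include the called regions themselves. A balanced region lay within 5 kb of 223 lung-higher regions (9.79%; 8.60% to 11.1%) and of 86 spleen-higher regions outside pile-ups (10.5%; 8.46% to 12.8%). The median distance to the nearest balanced region was 65.3 kb from lung-higher and 54.5 kb from spleen-higher regions. Over all 13178 regions with at least 20 lung reads that were not themselves balanced, 18.0% had a balanced region within 5 kb and the median distance was 36.7 kb. Over the 2900 such regions with at least 20 spleen reads these values were 21.9% and 30.3 kb.

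The X chromosome stood out by its few lung-higher regions. It held 7 among 250 regions with at least 20 lung reads, or 2.80%, beside 11.8% over all chromosomes, and the autosomes ran from 7.18% on chromosome 13 to 16.6% on chromosome 1. For spleen-higher regions it held 18 of 135, or 13.3%, beside 9.55% over all. There the autosomes ran from 6.40% on chromosome 7 to 14.9% on chromosome 13, so the X chromosome lay within their range. The X chromosome took 3.33% of all lung reads and 4.21% of all spleen reads, between which kidney lay at 3.47% and liver at 3.80%. Brain lay below lung. The sex of the animals is not given in the labels, and its part in this difference was not tested.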

How the data were processed

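Chromatin from whole tissue was crosslinked with 1% formaldehyde for 10 min and sheared to 0.2 to 0.8 kb, per the labels' protocols. The authors deposited, per tissue, aligned reads (chromosome, start, end and strand) and peak positions on a grid of 5 bp, with no score or p-value. Bowtie was used, per the submitters' processing notes. No source used here gives its settings, the peak caller or the genome build. Reads outside 34 to 36 bases were left out, 8 in lung and 15 in spleen. Repeated positions made up 7.16% of lung and 8.52% of spleen reads and were kept.

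Reads were counted at their 5′ end and peak windows counted as shared with an overlap of 1 bp. Other tissues were scaled to lung in the same way as spleen. Intervals of folds are Clopper-Pearson intervals, conditional on the sum of both raw counts. The regions and runs named are those with the largest fold (at least 50 reads), the highest lower count, or the most called regions. In each set 10 regions and 5 runs were ranked, some given only as ranges, and further lung runs are given beside them. The interval of a median over regions is from order statistics. Calling was tested on simulated counts with counting error only and folds planted at strong regions. The simulation had no background difference between libraries, so it cannot tell how calls at weaker regions fare. The comparison, its members and its lists were chosen with earlier results of these data known. The left-out comparison, distances, chromosomes, overlap by reads, shares over all regions and the second pile-up criterion were added after the data were seen. Lists of cell type marker genes had been drawn up, but no gene annotation of the build of the files was at hand, so they were not analysed here and no sequence is shown. Counts and intervals were computed with SciPy 1.17.1, pandas 2.3.3 and NumPy 2.4.6 under Python 3.11.15, and plots with Matplotlib 3.10.9.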

Additional observations from a re-analysis of the deposited data

How the results depend on the processing

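No paired analysis was possible because each tissue has 1 library and no result comes from a test. The marker list and marker gene alternatives were not run, since no annotation of the build was used. Beside the 2277 lung-higher, 860 spleen-higher and 5974 balanced regions, scaling by total reads gave 6408, 347 and 3737, windows of 150 bp 1111, 329 and 2393, windows of 500 bp 1263, 3060 and 13535, and a minimum of 50 reads 488, 118 and 594. With windows of 500 bp and with lower minimums the excess of lung calls turned round: a minimum of 10 gave 2494 lung-higher, 8493 spleen-higher and 17348 balanced regions, and no minimum gave 2494, 9383 and 48942. Folds of 2 and 8 gave 6883 and 248 lung-higher and 2315 and 322 spleen-higher regions. Spleen-higher regions numbered 511 with 1 read per position and strand and 480 with spleen thinned to the lung total. The median absolute log2 ratio was 0.80 by total reads, 0.52 without repeats and 0.58 after background subtraction. The share of lung regions with a spleen peak was 18.9% and 25.8% with windows of 150 and 500 bp. Spleen runs numbered 11 with gaps of 2 kb, and total reads gave 418 lung and 6 spleen runs. At regions high in lung, total reads gave 17.9% for spleen, 24.4% for brain and 31.4% for kidney, and at regions high in spleen 39.3% for lung, 12.4% for brain, 14.6% for kidney and 13.5% for liver. With flanks of 2 to 10 kb the centre over flank median was 8.91 in lung at balanced regions, 3.35 in lung and 1.06 in spleen at lung-higher regions, 5.14 in spleen at spleen-higher regions, and 4.62 in lung and 3.69 in spleen at regions with both peaks. The other 30 values stayed within 1.5 times for counts, or within the interval of the main value. The cause of these changes was not tested. Depth limits the calls, since regions under 20 reads in the higher tissue could not be called.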
